A study of Gallus gallus with 6 samples.

Results

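Transcript levels of 9 genes for the binding and uptake of fatty acids were read in the livers of 6 roosters. They were 5 intracellular fatty acid binding proteins (FABP1, FABP3, FABP4, FABP5 and FABP7), the acyl-CoA binding protein DBI, the receptor CD36, and the fatty acid transport proteins SLC27A1 and SLC27A4. The genes were chosen by symbol, and each was matched through its NCBI Gene ID in the chicken RefSeq gene table to a gene of the expression table. All 9 were found among the 20498 genes listed. Their expression values played no part in the matching. All birds were males of the F1 generation of the Jingxing-Huang (JXH) dwarf line, aged 36 weeks and raised on a basal diet without induction of fatty liver. The 3 fatty liver birds came from the paternal inheritance group, in which JXH sires with fatty liver had been mated to hens that had no fatty liver, and in which sires and hens alike had received a high-fat diet. The 3 control birds had livers without fatty change and parents kept on the basal diet. The design asked how liver expression differed between these groups. The sire's fatty liver, the diet of both parents and the bird's own liver phenotype changed together between the groups, so their effects cannot be told apart. Each library was made from 1 bird, and the labels did not say whether birds of a group shared a sire.

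Long-chain fatty acids cross the cell membrane with the help of receptors such as CD36 and of the SLC27 proteins, which also join fatty acids to coenzyme A. Inside the cell, small FABP barrels carry fatty acids through the cytosol, and DBI binds the acyl-CoA that the synthetases make. In mammals FABP1 is the main form of liver, FABP3 that of heart and muscle, FABP4 that of adipocytes and macrophages, FABP5 that of skin and FABP7 that of the developing brain. Birds also have a liver basic form, LBFABP (also called FABP10), which mammals lack.

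The 6 libraries held 8860634 to 10403637 fragments, worked back from the deposited values, and between 15121 and 15387 genes above 0 each. Values were FPKM, which are fragments scaled by exon length and by library size, so that levels could be compared between genes. The 8 hepatocyte markers together reached 116000 to 144000 FPKM in the control birds and 119000 to 130000 in the fatty liver birds, so the label of liver held in every library. Single markers differed in opposite directions without overlap of the groups. ALB averaged 96848 in control and 68243 in fatty liver, and APOA1 averaged 20410 and 41671. Neither passed the test described next (adjusted p = 0.15 and 0.13 in limma). The test covered the 10886 genes whose FPKM averaged 1 or more over the 6 libraries, and 124 of them passed an adjusted p of 0.05 in limma (Benjamini-Hochberg), 92 of them higher in fatty liver. The median log2 fold change of these genes was 0.12. Scaling the libraries to a common median brought it to 0.00, which follows from the scaling itself. That scaling left 79 genes called, 43 of them higher. These were bulk tissue samples, in which fewer cells of a type and less RNA per cell cannot be told apart.

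In control liver the 9 genes spread from the most abundant transcripts to the detection floor. Ranks were counted from 1 at the highest mean FPKM among the 17185 genes above 0 in at least 1 library. DBI stood at rank 86, and its 3 control birds at ranks 70, 103 and 99. CD36 followed at rank 668, SLC27A4 at 1691, FABP7 at 1788, FABP5 at 3704 and SLC27A1 at 5136. The lower end was held by FABP1 at 6260, FABP4 at 8439 and FABP3 at 11447. FABP1, the main liver form of mammals, was thus in seventh place among the 9 genes in control roosters. Its place differed widely between birds, with ranks of 10470, 9744 and 3368, and the group rank was 10085 without control replicate 3. Only DBI and CD36, and CD36 and SLC27A4, were neighbours in this order whose control ranges did not overlap.

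**Figure D1:**
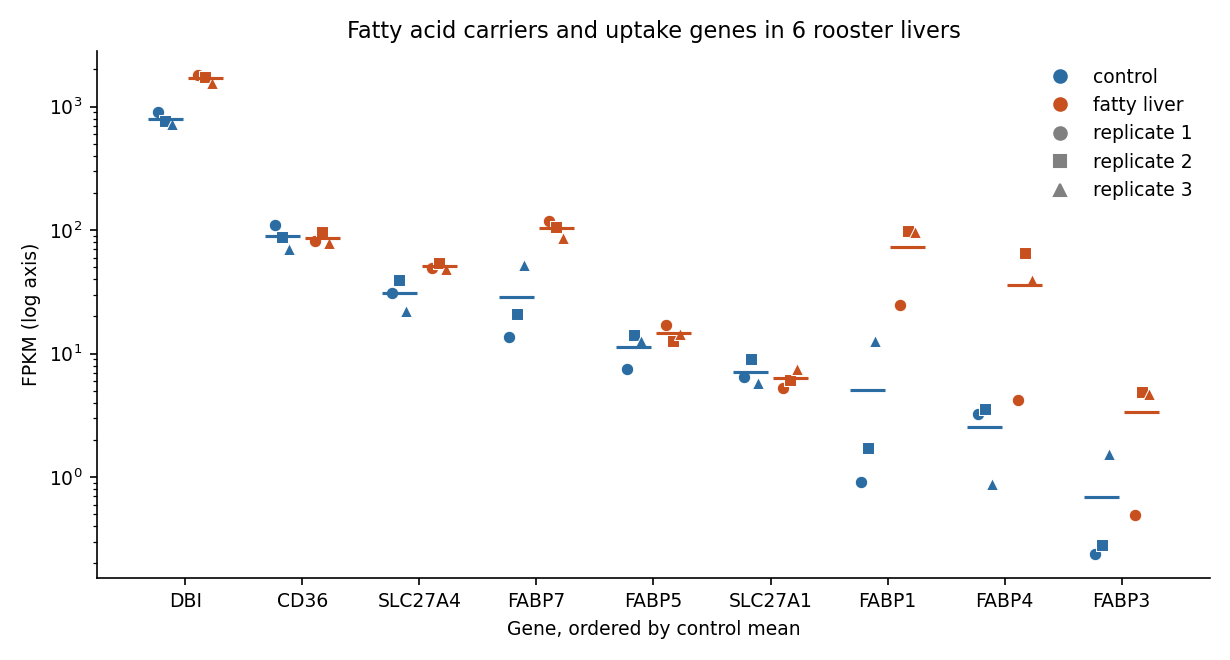
FPKM (log axis) of the 9 genes in each of the 6 birds, ordered along the horizontal axis by the control mean; colours mark the groups, marker shapes the replicate, and short lines the group means. DBI lies highest in all libraries, between 722 and 898 for control birds and between 1560 and 1812 for fatty liver birds, and FABP1, FABP4 and FABP3 spread most between birds of a group.

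DBI, which binds long-chain acyl-CoA esters in the cytosol, was the most abundant of the 9 genes in every library. Its FPKM was 898, 758 and 722 in control replicates 1 to 3, and 1812, 1738 and 1560 in fatty liver replicates 1 to 3. The groups did not overlap, and the lowest fatty liver bird lay well above the highest control bird. The mean was 793 ± 92.7 (SD, n = 3) in control and 1703 ± 130 (SD, n = 3) in fatty liver, a ratio of 2.15. DBI rose by a log2 fold change of 1.11 (SE 0.16, 95% interval 0.74 to 1.47, adjusted p = 0.024 in limma). It was the single gene of the 9 to pass the threshold, beside 1.14% of all tested genes in either direction and 0.845% of them in the higher direction. The change was smaller, and missed the threshold, when the libraries were rescaled without the 50 most abundant genes (0.94, adjusted p = 0.066) or to a common median (0.96, adjusted p = 0.082). Leaving out any bird other than control replicate 1 also took the adjusted p above 0.05, with log2 fold changes of 1.04 to 1.20 over the 6 omissions. Counting error was small for DBI, since each library held at least 887 of its fragments. The spread between birds was also the smallest of the 9 genes in control, with a coefficient of variation of 11.7%.

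FABP7 had the highest mean of the 5 FABP genes in both groups. Its FPKM was 13.6, 21.0 and 51.9 in control and 119.5, 106 and 85.9 in fatty liver. Every fatty liver bird lay above every control bird, and control replicate 3 was well above the other control birds. The means were 28.8 ± 20.3 and 104 ± 16.9 (SD, n = 3 each), a ratio of 3.61. The log2 fold change of 2.02 (SE 0.42, 95% interval 1.04 to 2.99) did not pass the threshold in limma (adjusted p = 0.069). Without control replicate 3 it was 2.54, with an adjusted p of 0.014 in limma. That was the 1 refit that passed of 15 with other settings or without a bird. Leaving out each bird in turn gave adjusted p values of 0.014 to 0.19 in limma. The other settings gave 0.062 to 0.15. FABP7 rested on 101, 133 and 358 fragments in control and on 853, 732 and 618 in fatty liver. The control coefficient of variation of 70.4% was far above the 7.12% that counting error alone would give. Glia and nerve markers stand for tissue where FABP7 is known to be high. The 5 listed summed to 0.158, 0.41 and 0.0984 FPKM in control and to 0.394, 1.68 and 0.419 in fatty liver. None of the 5 averaged 1 FPKM or more. The part of nerve tissue in the FABP7 values was not tested.

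FABP1, the liver-type fatty acid binding protein, had the largest difference between the group means relative to control, together with FABP4. Its FPKM was 0.914, 1.72 and 12.6 in control and 24.9, 97.7 and 96.4 in fatty liver. The groups did not overlap, but within each of them a single bird stood apart, control replicate 3 on the high side and fatty liver replicate 1 on the low side. The means were 5.07 ± 6.52 and 73.0 ± 41.7 (SD, n = 3 each), a ratio of 14.4. The control values of FABP1 rested on few fragments, namely 5 (95% Poisson interval 1.62 to 11.7), 8 (3.45 to 15.8) and 64 (49.3 to 81.7). Such intervals cover counting error only. The interval of control replicate 3 lay apart from those of the other control birds, so the control birds differed by more than counting error. In fatty liver the gene had 131, 495 and 511 fragments. The log2 fold change was 3.93 (SE 0.78, 95% interval 2.14 to 5.72), and the adjusted p in limma was 0.062. It passed the threshold when either of the birds that stood apart was left out, at 4.79 (adjusted p = 0.022) without control replicate 3 and at 4.57 (adjusted p = 0.039) without fatty liver replicate 1. No other omission took it past the threshold, and the adjusted p over all 6 ranged from 0.022 to 0.18.

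FABP4, the adipocyte and macrophage form, was low in 4 of the 6 livers and high in the other two. Its FPKM was 3.24, 3.57 and 0.873 in control and 4.22, 65.1 and 39.2 in fatty liver. The groups did not overlap by FPKM, yet fatty liver replicate 1 lay next to the control birds. That bird had 20 fragments (95% Poisson interval 12.2 to 30.9) and control replicate 2 had 15 (8.40 to 24.7), and these intervals overlapped. Fatty liver replicates 2 and 3 had 297 and 187 fragments. Within fatty liver the highest bird was 15.4 times the lowest, the widest range of the 9 genes in that group. The means were 2.56 ± 1.47 and 36.2 ± 30.5 (SD, n = 3 each), a ratio of 14.1. The log2 fold change of 2.86 (SE 0.85, 95% interval 0.89 to 4.83) did not pass the threshold in limma (adjusted p = 0.16). Without fatty liver replicate 1 it was 3.96, with an adjusted p of 0.014. That was the 1 refit that passed of 15 with other settings or without a bird. Over the 6 omissions the adjusted p ranged from 0.014 to 0.37.

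FABP3, the heart and muscle form, lay at or near the detection floor. A floor of 3 fragments per library corresponded to between 0.717 and 0.842 FPKM of FABP3. Its FPKM was 0.239, 0.281 and 1.54 in control and 0.498, 4.91 and 4.69 in fatty liver, from 1, 1 and 6 and from 2, 19 and 19 fragments. Control replicates 1 and 2 and fatty liver replicate 1 were at or below the floor, and the groups overlapped. FABP3 was the 1 gene of the 9 whose control mean, 0.688, lay under the filter of 1 FPKM, so that it was tested only through its fatty liver values. The log2 fold change of 1.21 (SE 0.54, 95% interval -0.04 to 2.46, adjusted p = 0.32 in limma) depended on the constant added before taking logs, and was 2.03 with 0.1 in place of 1. The bird that was low for FABP4 in fatty liver was also the low one for FABP3. Muscle markers summed to between 1.80 and 8.49 FPKM. Most of this sum was ACTA1, at 1.80 to 7.87 FPKM, whereas TNNI1 was listed at 0 in all 6 libraries.

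FABP5, the epidermal form, did not differ between the groups by more than the spread between birds. Its FPKM was 7.53, 14.1 and 12.6 in control and 17.0, 12.6 and 14.3 in fatty liver. The ranges overlapped, and control replicate 1 was the lowest of the 6. The means were 11.4 ± 3.45 and 14.6 ± 2.21 (SD, n = 3 each), and the log2 fold change was 0.37 (95% interval -0.19 to 0.92, adjusted p = 0.49 in limma). Without control replicate 1 it was 0.12. The gene was well counted, with 102 to 221 fragments in each library. FABP4 and FABP5 are near neighbours in the chicken genome, with 1 protein-coding gene (FABP9) between them. Their ratio of FPKM, FABP4 over FABP5, was 0.431, 0.253 and 0.0695 in control and 0.249, 5.16 and 2.73 in fatty liver, so that FABP4 exceeded its neighbour in the last 2 birds alone.

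CD36, a scavenger receptor that takes up long-chain fatty acids at the cell surface, was second in control liver. Its FPKM was 110.2, 87.4 and 70.1 in control and 81.0, 97.4 and 78.6 in fatty liver. The fatty liver range lay wholly inside the control range. With at least 2643 fragments in each library, counting error amounted to 1.72% of the control mean, and the control coefficient of variation of 22.5% was a spread between birds. The log2 fold change was -0.04 (SE 0.20, adjusted p = 0.95 in limma), and its 95% interval of -0.51 to 0.43 bounded the difference that the 6 birds allowed. The sign was not stable, at 0.12 without control replicate 1 and 0.02 without fatty liver replicate 3.

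The SLC27 genes encode fatty acid transport proteins. SLC27A4 had an FPKM of 30.9, 39.5 and 22.2 in control and 49.8, 54.0 and 48.9 in fatty liver. All fatty liver birds lay above all control birds, and they lay close together, with a coefficient of variation of 5.39% against 28.0% in control. The means were 30.9 ± 8.65 and 50.9 ± 2.74 (SD, n = 3 each), a ratio of 1.65, and the log2 fold change was 0.74 (SE 0.22, 95% interval 0.24 to 1.24, adjusted p = 0.15 in limma). It missed the threshold in all 15 refits with other settings or without a bird. SLC27A1 had an FPKM of 6.44, 9.07 and 5.79 in control and 5.28, 6.11 and 7.49 in fatty liver, with overlapping ranges. Its log2 fold change was -0.14 (95% interval -0.61 to 0.33, adjusted p = 0.78 in limma) and was 0.03 without control replicate 2. The ratio of SLC27A4 to SLC27A1 within a library was 4.81, 4.36 and 3.83 in control and 9.43, 8.84 and 6.52 in fatty liver. This ratio does not depend on how libraries are scaled, and its groups did not overlap. The difference in this ratio was not tested.

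Counted over the 9 genes, 5 had groups that did not overlap, all of them higher in fatty liver (FABP1, FABP4, FABP7, DBI and SLC27A4). Over all tested genes, 23.0% had groups that did not overlap, with 18.3% higher and 4.78% lower in fatty liver. The median log2 fold change of the 9 was 1.11, and 7 of them were above 0, beside a median of 0.12 and 7314 of 10886 genes above 0. These figures are a description, because the genes were picked with results of these birds known, and FABP3 entered them through the group in which it was high. The order of the log2 fold changes was not the order of the tests. FABP1, FABP4, FABP7 and FABP3 all had larger estimates than DBI, and each of them had a wider interval.

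**Figure D2:**
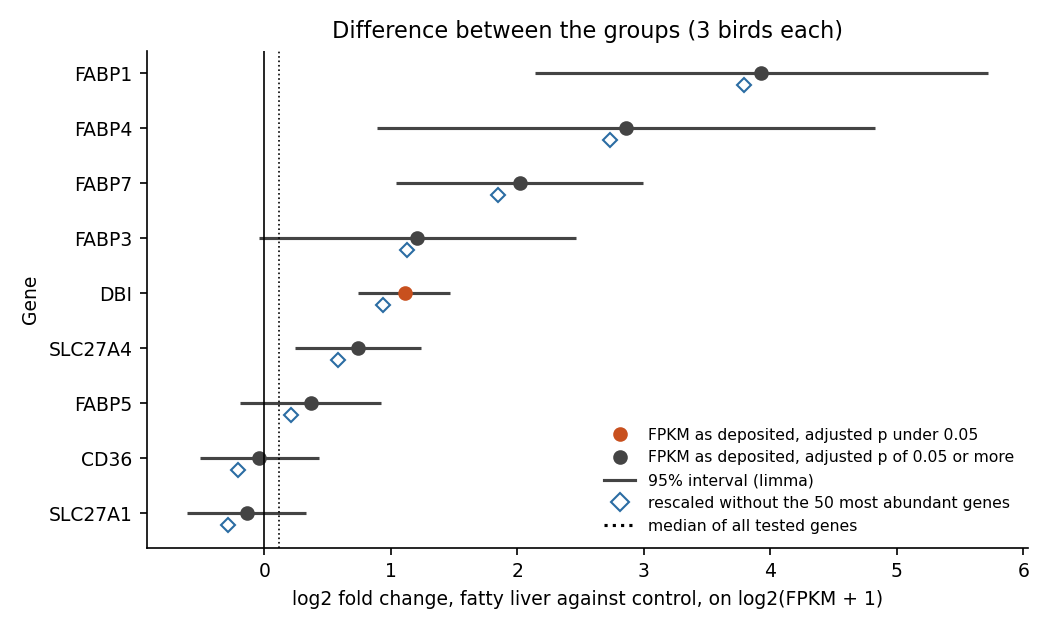
Log2 fold change of fatty liver against control on the log2(FPKM + 1) scale for the 9 genes (circles, with 95% intervals from limma, 3 birds a group), and the same after rescaling without the 50 most abundant genes (diamonds); the dotted line marks the median of all tested genes, 0.12. DBI at 1.11 has the narrowest interval and alone has an adjusted p under 0.05, while the intervals of FABP3, FABP5, CD36 and SLC27A1 include 0.

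The place of the genes in the fatty liver transcriptome differed accordingly. DBI stood at rank 37 of the group mean, with birds at 34, 36 and 42. FABP7 stood at 661, CD36 at 796, FABP1 at 892, SLC27A4 at 1208 and FABP4 at 1590. FABP5 was at 3293, SLC27A1 at 5852 and FABP3 at 7940. FABP7 thus lay above CD36 in all 3 birds, whereas in control both FABP7 and FABP1 had lain below it. FABP7 and CD36 were close in fatty liver replicate 2, at 106 and 97.4 FPKM. They were also close in fatty liver replicate 3, at 85.9 and 78.6 FPKM. FABP1 lay above CD36 in fatty liver replicate 3, at ranks 729 and 864. In fatty liver replicate 2 FABP1 and CD36 were level within counting error, at 97.7 and 97.4 FPKM (ranks 675 and 677). In fatty liver replicate 1, FABP1 was at rank 2194 and CD36 at rank 818. In fatty liver the ranges of FABP7, CD36, FABP1, SLC27A4, FABP4 and FABP5 overlapped from each gene to the next. DBI lay apart above FABP7, and SLC27A1 lay apart from FABP5 above it and FABP3 below it. The rank of FABP4 was the least even, at 7238 in fatty liver replicate 1 against 956 and 1541 in the other birds.

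**Figure D3:**
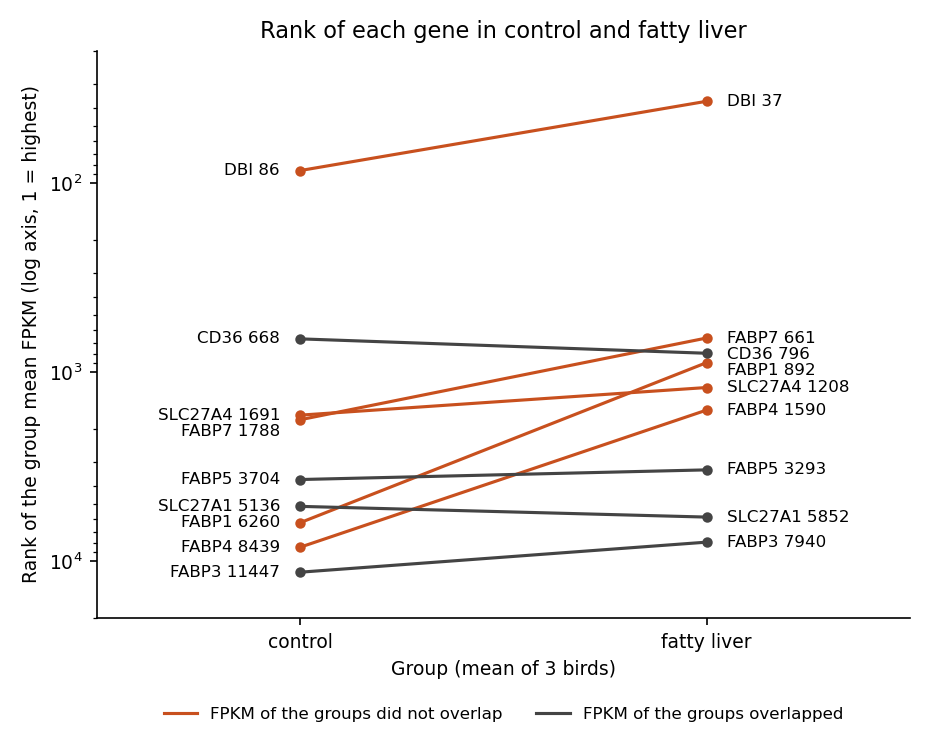
Rank of the mean FPKM of each gene (log axis, 1 is the highest of 17185 genes) in control and in fatty liver, 3 birds each; line colour marks whether the FPKM of the groups overlapped. FABP1 goes from rank 6260 to 892 and FABP4 from 8439 to 1590, while CD36 goes from 668 to 796.

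The summed level of the 5 FABP genes was 25.5, 40.7 and 79.4 FPKM across the control birds and 166, 287 and 241 across the fatty liver birds. The groups did not overlap, and the means were 48.6 ± 27.8 and 231 ± 60.9 (SD, n = 3 each), a ratio of 4.76. Their make-up differed too. FABP5 held 26.7% of the sum in control and 6.86% in fatty liver as the mean over birds, and FABP1 held 7.88% and 29.7%. The FABP5 shares of the groups did not overlap. Those of FABP1 did, at 15.8% in control replicate 3 and 15.0% in fatty liver replicate 1. The control share of FABP1 was 3.90% without control replicate 3. FABP7 had a mean share of 56.7% in control and 48.3% in fatty liver. Without fatty liver replicate 1 its share there was 36.4%, beside 37.1% for FABP1. Fatty liver replicate 1 differed from the other fatty liver birds, with 71.9% of the sum from FABP7 and 2.54% from FABP4. In fatty liver replicates 2 and 3, FABP7 held 37.1% and 35.7%, FABP1 held 34.1% and 40.1%, and FABP4 held 22.7% and 16.3%. Shares of fragments, which favour long transcripts, gave FABP5 41.0% in control and 13.2% in fatty liver. By fragments the share of FABP7 was 49.0% in control and 51.0% in fatty liver, the opposite order to that by FPKM.

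**Figure D4:**
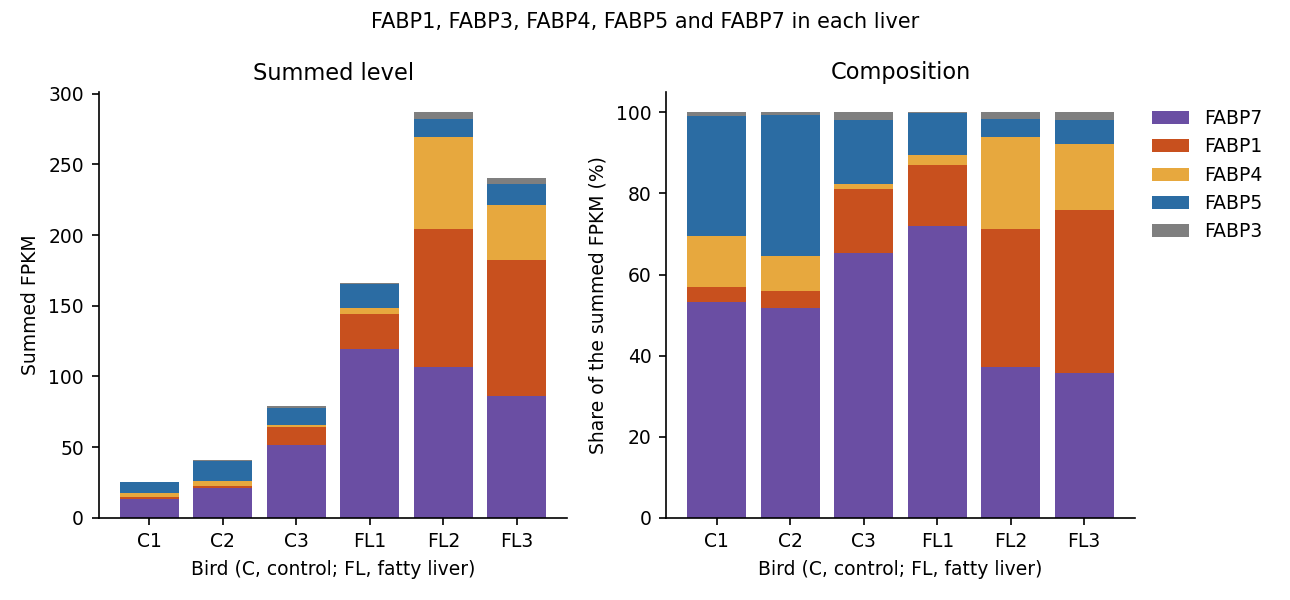
Summed FPKM of FABP1, FABP3, FABP4, FABP5 and FABP7 in each bird (left) and the percentage of that sum from each gene (right); C1 to C3 are control and FL1 to FL3 fatty liver replicates. The sum is 25.5 to 79.4 for control birds, against 166 to 287 for fatty liver birds, and FL1 has a larger FABP7 share, 71.9%, than FL2 and FL3.

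All of these levels were small beside LBFABP, the liver basic form, which binds bile acids as well as fatty acids in the chicken. Its FPKM was 5011, 6798 and 4713 in control and 4372, 6532 and 5668 in fatty liver. The groups overlapped, with a log2 fold change of 0.00 (95% interval -0.49 to 0.50). With FABP6 and LBFABP counted in, LBFABP made up 98.3 to 99.4% of the family total in the control birds and 95.7 to 96.3% of it in the fatty liver birds. LBFABP exceeded FABP1 by 5484, 3960 and 374 times in the control birds and by 175, 66.8 and 58.8 times in the fatty liver birds. The form that dominates the mammalian liver was therefore minor beside LBFABP in every one of these livers.

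FABP4 was set beside markers of the cells in which it is known to be high. The summed FPKM of 8 macrophage markers was 280, 517 and 588 in control and 202, 605 and 1010 in fatty liver, and CD74 made up most of it. The groups overlapped, none of the 8 markers passed the test, and none was at 0. Fatty liver replicate 1, low in FABP4 and FABP3, had the lowest macrophage sum of the 6 birds, whereas control replicate 3 had the lowest FABP4 and a sum of 588. The 5 T and B cell markers summed to 128, 166 and 277 FPKM in the control birds and to 53.7, 250 and 449 in the fatty liver birds. This sum was again lowest in fatty liver replicate 1. BLB2 made up most of it, at 94.9, 124 and 217 in control and 36.2, 228 and 404 in fatty liver. By contrast, CD3D and CD3E were lower in fatty liver replicates 1 and 2 than in every control bird. Their log2 fold changes were -0.93 and -0.54, beside -0.15 for PTPRC, 0.08 for CD79B and 0.13 for BLB2. None of the 5 passed the test. Of 5 adipocyte markers 4 were found, and PLIN1, which also coats the lipid droplets of hepatocytes, was the 1 that passed the test. The 4 summed to 47.2, 46.8 and 102 FPKM in control and to 205, 99.7 and 133 in fatty liver, mostly from CIDEC and PLIN1. PLIN1 was at 2.98, 5.97 and 7.10 FPKM in control and 31.7, 36.8 and 37.9 in fatty liver. Its log2 fold change was 2.58 (adjusted p = 0.01 in limma). CIDEC, which also marks lipid droplets of hepatocytes, was at 43.0, 39.8 and 93.2 in control. It was at 172, 61.5 and 94.0 in fatty liver (adjusted p = 0.37 in limma). ADIPOQ, the adipocyte hormone adiponectin, was at 0.701, 0.940 and 0.970 FPKM in control and 0.834, 1.30 and 1.03 in fatty liver, from 7 to 12 fragments. AQP7, a glycerol channel, reached at most 1.19 FPKM. RBP7, a retinol binding protein of the same protein family, had 1, 2 and 3 fragments in control and 4, 79 and 32 in fatty liver, and was named after its values were seen. RBP7 did not pass the threshold (adjusted p = 0.20 in limma). The part of cell composition in the FABP4 values was not tested.

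**Figure D5:**
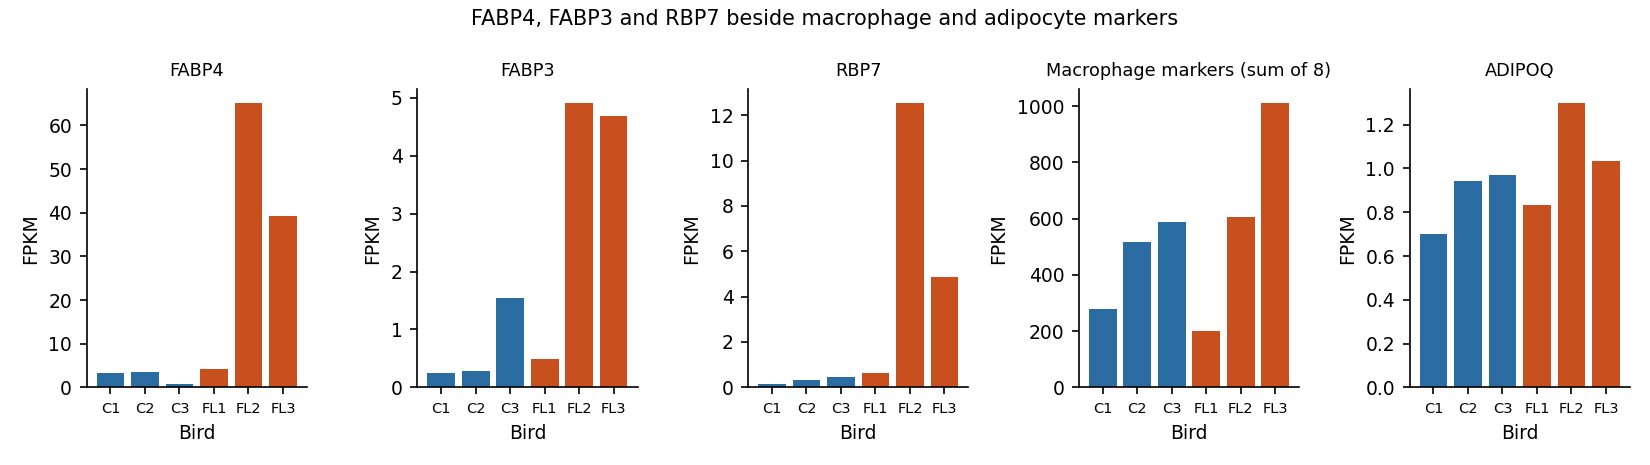
FPKM per bird of FABP4, FABP3, RBP7, the sum of 8 macrophage markers and the adipocyte hormone gene ADIPOQ; blue bars are control (C1 to C3) and orange bars fatty liver (FL1 to FL3), and each panel has its own axis from 0. FABP4, FABP3 and RBP7 are high in FL2 and FL3 and low in FL1, the macrophage sum is lowest in FL1 at 202, and ADIPOQ stays between 0.701 and 1.30.

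Among 10 tested carriers of acyl-CoA and other lipids, 2 passed the test as higher in fatty liver and none passed as lower, beside 0.845% of all tested genes called higher. Their median log2 fold change was 0.21, beside 0.12 for all tested genes. The list was chosen with earlier results of these birds known, so these figures are a description. GLTP, a glycolipid transfer protein, was at 5.17, 6.66 and 5.29 FPKM in control and 15.4, 15.3 and 18.3 in fatty liver, a rise of 1.37 on the log2 scale (adjusted p = 0.014 in limma). HSDL2, a peroxisomal protein with a sterol carrier domain, was at 82.1, 76.0 and 71.7 in control and 153, 164 and 143 in fatty liver, a rise of 0.99 (adjusted p = 0.030). After rescaling without the 50 most abundant genes, the adjusted p was 0.013 for GLTP and 0.065 for HSDL2. For SCP2, the sterol carrier protein, the groups did not overlap, with an estimate of 0.72 on the log2 scale (adjusted p = 0.086). DBI was set against its relatives ACBD3 to ACBD7, which carry the same acyl-CoA binding domain. DBI was 9.58, 5.39 and 4.68 times their sum in the control birds and 12.1, 15.2 and 12.5 times in the fatty liver birds, and these ranges did not overlap. ACBD5, a peroxisomal tether and the most abundant of them, differed by 0.01 on the log2 scale (adjusted p = 0.99). ACBD7 was at 9.46, 23.0 and 15.3 FPKM in control and 4.87, 8.24 and 8.61 in fatty liver, groups that did not overlap, and its log2 fold change of -0.99 (95% interval -1.74 to -0.25) did not pass the threshold (adjusted p = 0.19). It was named after its values were seen.

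Of 11 other intracellular lipid binding proteins listed, LBFABP among them, 9 were found, 4 reached the filter and none passed the test. Their median log2 fold change of 0.48 includes RBP7, which reached the filter only through its fatty liver values. The other five were under 1 FPKM in every library. RBP5, a retinol binding protein and the second in level after LBFABP, differed by 0.43 on the log2 scale (adjusted p = 0.38). FABP2, the intestinal form, was listed at 0 in all 6 libraries. Among 9 tested uptake transporters and receptors, none passed either, and their median was 0.22. SLC27A2, the very long chain acyl-CoA synthetase of the SLC27 family, was more abundant than SLC27A4 in every library, at 165, 147 and 154 FPKM in control and 177, 187 and 213 in fatty liver. Its groups did not overlap, but the log2 fold change of 0.30 did not pass the threshold (adjusted p = 0.38). GOT2, a mitochondrial transaminase that also binds fatty acids at the plasma membrane, was 0.68 higher on the log2 scale (adjusted p = 0.11).

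The enzymes that supply DBI with acyl-CoA are the acyl-CoA synthetases. Of 5 tested, 1 passed the test as higher in fatty liver, beside 0.845% of all tested genes. All 5 had a log2 fold change above 0, as did 7314 of the 10886 tested genes, and their median was 0.53. This list too was chosen with earlier results of these birds known, and its figures are a description. ACSL5 was at 34.7, 40.3 and 29.1 FPKM in control and 63.9, 112 and 91.5 in fatty liver, a rise of 1.31 on the log2 scale (adjusted p = 0.047 in limma). After rescaling without the 50 most abundant genes its adjusted p was 0.073. For ACSBG2, of the bubblegum family, the estimate was 1.82 (adjusted p = 0.087), and ACSL1 was high in fatty liver replicate 1 alone, at 234 FPKM. Among 9 tested nuclear receptors and partners, some of which regulate FABP genes in mammals, none passed and the median was -0.01. The log2 fold change was -0.18 for PPARA, the fatty acid sensor of hepatocytes (adjusted p = 0.61), and -0.46 for NR1H3, the liver X receptor (adjusted p = 0.19).

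The 9 genes did not share a single profile across the 6 birds. On the log2(FPKM + 1) scale, Pearson's r over the 6 libraries was 0.92 between FABP1 and FABP7, 0.89 between FABP1 and FABP3, 0.86 between DBI and SLC27A4, and 0.82 between FABP3 and FABP4. It was -0.69 between FABP5 and CD36 and 0.10 between SLC27A1 and SLC27A4. With 6 points in 2 groups these values are descriptive, and genes that differ between the groups share that difference. The search for the most alike genes left out tested genes without a symbol or with a placeholder symbol (LOC). Of those left out, 1 had an r above 0.99 with FABP4. Among the tested genes that remained, the most like FABP1 were EXOG (r = 0.996) and TUBB4B (0.995). For DBI they were EDA2R and SULT6B1L (0.997 each), and 13 tested genes had an r above 0.99 with it. For SLC27A4 they were TCHP (0.997) and AKAP1 (0.995), for FABP7 PUS7L and EXOC5 (0.994 each), and for FABP4 KCNJ5 (0.989) and METTL9 (0.988). FABP3 was most like TCEA2 (0.995) and OVCH1 (0.993), and FABP5 was most like ENTPD4 (0.994) and NRARP (0.992). CD36 was most like PPP1R1A (0.967) and RBP (0.963), and SLC27A1 was most like CD164 (0.995) and STAM (0.98). Tested genes with an r above 0.99 numbered 4 for FABP7, 3 for FABP5, and 2 each for FABP1 and FABP3. There were 8 for SLC27A4, 1 each for FABP4 and SLC27A1, and 0 for CD36. The genes named here were picked as the highest r of all genes searched, over 6 libraries, so their values are descriptive too.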

How the data were processed

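Liver RNA of 6 birds, 3 a group, was sequenced as poly(A)-selected libraries. The authors filtered reads with Sickle and SeqPrep, mapped them to Gallus_gallus_5.0 and deposited FPKM per NCBI Gene ID. The aligner, counting tool, annotation and strand setting are not given in the sources used here. Reads of a gene and of an antisense partner may therefore not have been told apart. Symbols came from the RefSeq table of another assembly (16332 IDs matched), so no coordinates are given.

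The deposited FPKM were tested as log2(FPKM + 1) with limma 3.58.1 (R 4.3.3, mean-variance trend, Benjamini-Hochberg, threshold 0.05) over the 10886 genes averaging 1 FPKM or more. A fold change on this scale understates the change of low genes. The fit, and the recovery of fragments below, were also tested on simulated data. Whole fragments were worked back from the FPKM, and gave exact Poisson intervals (95%) and a floor of 3 fragments. Those of DBI were fixed only up to a factor of 2, and its lower value is given. FPKM carry the composition of each library, so a few very abundant genes can move all others. Named genes were the 9 members, the called genes and the 2 most abundant others of each list, and the 2 genes most like each member. The most alike genes were sought among tested genes with a symbol not starting with LOC. RBP7, ACBD7, HNF4A, FABP2 and FABP6 lie outside this rule, as do single cell type markers such as ADIPOQ, AQP7 and TNNI1. All of them were named after their values were seen. In the list of adipocyte markers, PLIN1 and CIDEC also mark lipid droplets of hepatocytes and were not read as adipocytes. Members and lists were chosen with earlier results of these data known. The other settings tried were another added constant, no filter, 3 scalings, 2 variance models, a replicate block, voom on fragments and leaving out each bird.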

Additional observations from a re-analysis of the deposited data

How the results depend on the processing

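DBI kept its direction in all 15 refits and passed the threshold in 6. It did not pass with no filter on low values (log2 fold change 1.11, adjusted p = 0.095), with libraries scaled to the same median (0.96, adjusted p = 0.082), rescaled without the 50 most abundant genes (0.94, adjusted p = 0.066) or with voom on fragments (0.96, adjusted p = 0.076), and the count of members called was then 0. Without each bird in turn its log2 fold change was 1.04 to 1.20, and between 0 and 2 members were called. FABP1 ranged from 3.37 to 4.79, FABP4 from 2.13 to 3.96, FABP7 from 1.61 to 2.54, FABP3 from 0.87 to 1.86, FABP5 from 0.12 to 0.53 and SLC27A4 from 0.53 to 0.93. CD36 ranged from -0.20 to 0.12, turning sign without control replicate 1 (0.12) or fatty liver replicate 3 (0.02), and SLC27A1 from -0.26 to 0.03, turning sign without control replicate 2 (0.03).

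Over all genes, 124 calls became 30 with no filter on low values and 79 with libraries scaled to the same median, where 54.4% of calls were higher against 74.2%, and 22 to 119 without a bird. Replicate numbers name different birds, and the deviations of same-numbered birds correlated by 0.0249 to 0.0485. These low values gave no sign that the numbers pair the samples, but a batch shared by number was not tested. A replicate block gave 140 calls and 2 members called, since FABP1 then passed (3.93, adjusted p = 0.0084) beside DBI. The causes of these shifts were not tested. With 3 birds a group and few fragments of FABP1, FABP3 and FABP4 in control, differences of these genes were imprecise.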
